A study of Homo sapiens with 15 samples.

Results

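The comparison sets 3 RNA sequencing libraries from an animal model of MHCC-97H against 3 libraries of the same cells in a 2D model, 6 of the 15 libraries of the series. MHCC-97H is an established human hepatocellular carcinoma line, selected for its high metastatic potential. The libraries were picked by their labels alone, and no measured value entered the choice. All 6 carry the same cell line label, and their only labelled difference is the growth model, 2D or animal. The other libraries are 3 from a 3D model and, from a second round of sequencing, 3 untreated and 3 heated ones in that model. The labels call the replicates biological without saying that each is a separate culture or animal, so every p-value here measures the spread between these libraries, which may be technical. The host species, the site and age of the tumours, whether animals were pooled, and whether host reads were removed are not given in the sources used here.

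Each 2D library held 17789899 to 17879280 counted reads over 14627 to 14692 genes, and each animal library 12605539 to 14538432 over 15221 to 15409 genes. Mitochondrial transcripts took 7.56 to 8.50% of the counts in 2D and 7.53 to 9.15% in the animal libraries. Across 12585 genes with a matched transcript, each animal library was set against the 2D mean: its departure correlated by rank with GC content at -0.205 to -0.149 and with transcript length at -0.0985 to 0.00101. These correlations run across genes of 1 library, which are not independent replicates. The animal libraries differed more among themselves. Levels are CPM, read counts scaled to a common library size with edgeR's TMM factors. Over the 9593 genes that averaged at least 10 CPM, the median SD of log2 CPM was 0.147 among the animal libraries and 0.0554 among the 2D libraries, and the animal SD was the larger one for 85.7% of genes.

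Against the labelled cell type, the keratins KRT8 and KRT18 of simple epithelia and the hepatocyte factors HNF4A and FOXA2 were present in all 6 libraries, from 57.6 CPM for FOXA2 to 3371 CPM for KRT8. AFP, the fetal albumin homologue used as a serum marker of this cancer, lay at 2.12, 2.102 and 2.43 CPM in 2D and 7.23, 5.59 and 18.01 CPM in the animal libraries. EPCAM and GPC3, a progenitor and an oncofetal surface marker, stayed below 0.7 CPM in every library. Read as labelled, the libraries thus hold epithelial cells with hepatocyte factors, with little AFP and nearly no EPCAM or GPC3.

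Hepatocytes secrete most plasma proteins, under promoters bound by liver-enriched factors. Inflammatory signals release NF-kB factors, which switch on chemokines and adhesion molecules, and interferons act through STAT and IRF factors on genes that carry an interferon-stimulated response element. AHR, a receptor activated by small aromatic ligands, drives xenobiotic-metabolising enzymes, and NRF2 drives enzymes that defend cells against oxidants.

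The promoters of 8 genes that rose in the animal libraries are printed first, since these 3 programmes recur below. Each is the RefSeq sequence of GRCh38.p14 from 250 bases before to 50 bases after the gene's start, 5′ to 3′ on the gene's strand. Capitals mark every match of 1 motif on either strand: the NF-kB binding consensus, called the kappaB motif, in VCAM1, CXCL5, CXCL1 and CCL20; a pair of GAAA half-sites spaced by 2 bases of any kind, the core of the interferon-stimulated response element, in IFI27 and IFI6; and GTTAAT, a sequence found in promoters of liver genes, in ALB and FGB. VCAM1 lies at chr1:100719492-100719791 on the plus strand, CXCL5 at chr4:73998628-73998927 on the minus strand, CXCL1 at chr4:73869143-73869442 on the plus strand and CCL20 at chr2:227813592-227813891 on the plus strand. IFI27 lies at chr14:94110486-94110785 on the plus strand, IFI6 at chr1:27672143-27672442 on the minus strand, ALB at chr4:73404037-73404336 on the plus strand and FGB at chr4:154562730-154563029 on the plus strand.
VCAM1: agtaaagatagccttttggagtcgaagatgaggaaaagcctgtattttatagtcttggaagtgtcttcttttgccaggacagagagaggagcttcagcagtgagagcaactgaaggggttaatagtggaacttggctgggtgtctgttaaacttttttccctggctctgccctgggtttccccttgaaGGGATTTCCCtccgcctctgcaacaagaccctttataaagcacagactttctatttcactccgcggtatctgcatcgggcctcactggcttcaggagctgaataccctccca
CXCL5: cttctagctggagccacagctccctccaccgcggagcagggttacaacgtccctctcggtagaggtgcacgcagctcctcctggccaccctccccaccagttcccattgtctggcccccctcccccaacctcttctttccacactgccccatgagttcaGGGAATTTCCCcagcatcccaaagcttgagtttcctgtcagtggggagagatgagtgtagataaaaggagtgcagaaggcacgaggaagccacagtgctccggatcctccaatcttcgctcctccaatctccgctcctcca
CXCL1: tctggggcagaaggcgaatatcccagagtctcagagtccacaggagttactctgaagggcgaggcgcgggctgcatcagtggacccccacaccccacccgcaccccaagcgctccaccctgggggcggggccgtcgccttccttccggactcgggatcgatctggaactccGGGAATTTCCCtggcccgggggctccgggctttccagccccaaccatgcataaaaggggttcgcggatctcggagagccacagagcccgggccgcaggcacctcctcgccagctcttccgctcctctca
CCL20: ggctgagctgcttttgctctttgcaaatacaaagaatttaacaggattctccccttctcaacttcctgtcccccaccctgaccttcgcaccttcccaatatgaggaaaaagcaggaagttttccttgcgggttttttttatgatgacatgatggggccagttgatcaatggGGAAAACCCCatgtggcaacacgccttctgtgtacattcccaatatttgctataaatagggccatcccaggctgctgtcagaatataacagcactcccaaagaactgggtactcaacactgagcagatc
IFI27: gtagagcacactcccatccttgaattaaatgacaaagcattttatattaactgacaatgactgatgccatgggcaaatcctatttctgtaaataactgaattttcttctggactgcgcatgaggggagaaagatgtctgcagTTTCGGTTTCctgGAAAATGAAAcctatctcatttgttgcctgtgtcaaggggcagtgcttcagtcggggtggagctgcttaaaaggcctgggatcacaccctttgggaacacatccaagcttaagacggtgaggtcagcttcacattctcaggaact
IFI6: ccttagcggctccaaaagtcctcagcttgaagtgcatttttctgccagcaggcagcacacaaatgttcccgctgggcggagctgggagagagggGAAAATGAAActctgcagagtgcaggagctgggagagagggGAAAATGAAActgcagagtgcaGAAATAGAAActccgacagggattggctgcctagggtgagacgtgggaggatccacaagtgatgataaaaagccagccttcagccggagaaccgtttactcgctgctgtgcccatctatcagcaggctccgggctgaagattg
ALB: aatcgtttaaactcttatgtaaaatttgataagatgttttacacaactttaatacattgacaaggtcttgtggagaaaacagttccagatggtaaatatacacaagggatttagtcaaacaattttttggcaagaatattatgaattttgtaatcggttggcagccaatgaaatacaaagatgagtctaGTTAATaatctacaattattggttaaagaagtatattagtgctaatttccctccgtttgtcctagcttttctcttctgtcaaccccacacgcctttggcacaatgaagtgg
FGB: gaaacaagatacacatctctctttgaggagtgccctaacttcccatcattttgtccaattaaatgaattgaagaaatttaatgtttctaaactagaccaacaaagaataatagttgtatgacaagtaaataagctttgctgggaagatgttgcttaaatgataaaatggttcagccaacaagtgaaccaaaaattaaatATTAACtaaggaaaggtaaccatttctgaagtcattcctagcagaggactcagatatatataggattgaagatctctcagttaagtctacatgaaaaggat

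The kappaB match of CXCL5 read GGGAATTTCC and began 91 bases before the start, and the same 10 bases stood in CXCL1, 79 bases before it. That of VCAM1 read GGGATTTCCC. In all 3 the motif matched on both strands at overlapping positions, so the capitals cover 1 site each. IFI6 held 3 matches of the GAAA pair and IFI27 held 2, and the GTTAAT of ALB ended 56 bases before the start.

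Over the RefSeq promoters of 27305 genes, 10.8% held the kappaB motif, 3.65% held the GAAA pair and 6.89% held GTTAAT. Of the chemokine genes that rose, 6 of the 9 with a RefSeq promoter held the kappaB motif (66.7%), and of the NF-kB regulators and cytokines that rose, 6 of 13 (46.2%). Among chemokine genes that were not tested 2 of 6 held it (33.3%), and among NF-kB genes that were not called 2 of 8 (25%). Of the interferon response genes, 13 of 19 that rose held the GAAA pair (68.4%), as did both of the 2 with a promoter that fell, ISG15 and OAS3, 2 of 4 not called (50%) and 2 of 3 not tested (66.7%). Of the plasma protein genes, 6 of 11 that rose held GTTAAT (54.5%), among them F2, FGA and PLG beside the printed ALB and FGB, and 0 of the 2 that fell, of the 4 not called and of the 10 not tested. No difference between genes that rose and the other members of their list was tested. A match describes the letters in this window only, and a promoter with no match says nothing about the factor.

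Across all genes, 3751 of 12697 were higher and 3538 lower in the animal than in the 2D libraries at an adjusted p below 0.05 in edgeR's quasi-likelihood test, which is 29.5% and 27.9% of those tested, or 57.4% in either direction. The median log2 fold change over all genes was 0.03, and 1505 of the higher and 667 of the lower genes moved by at least 2-fold. For 67% of genes the 2 groups had no overlap. Any list below therefore has to be read against these shares. Genes nearly silent in 2D could be tested only through reads in the animal libraries. For lists that hold such genes, the low-count filter thus partly set the counts and the median. Among these are the plasma protein, hepatocyte enzyme, chemokine, antigen presentation, mucosal, matrix, leukocyte and fibroblast lists. In a fit that also held the 3 libraries of the 3D model, 1006 genes were higher and 549 lower. The 3D libraries enter the spread of that fit, and 2 of them followed GC content, as given below. What this did to the counts was not tested. Genes named below as losing their call in this 9-library fit kept their direction there with an adjusted p above 0.05.

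**Figure D1:**
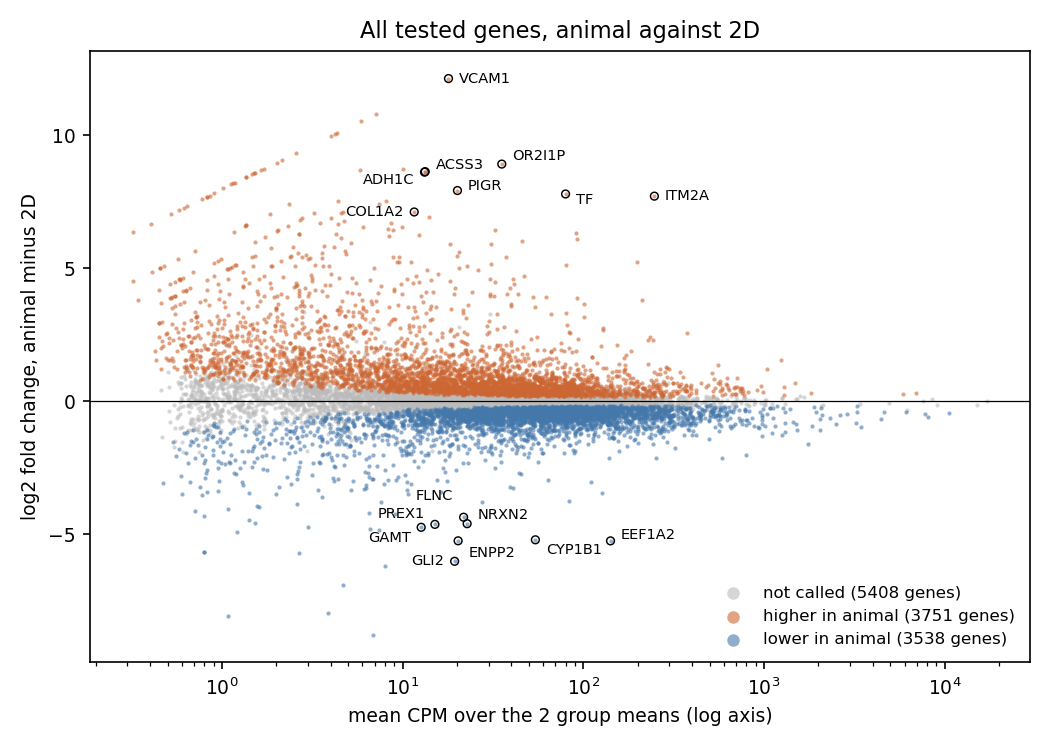
Log2 fold change (animal minus 2D, edgeR) against mean CPM on a log axis for the 12697 tested genes. The 8 largest rises and falls among genes averaging at least 10 CPM are circled and named. Rises reach further from 0 than falls, and the straight bands at the upper left are genes with no or few reads in 2D, whose fitted change depends on a small added count.

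Among genes averaging at least 10 CPM the largest rise was in VCAM1, the endothelial and inflammatory adhesion molecule that binds leukocyte integrins. It had 0 reads in every 2D library and 57.1, 23.8 and 26.8 CPM in the animal libraries. This is at least 203-fold higher against a floor of 3 counts per 2D library (adjusted p = 0.000389). ITM2A, a membrane protein, was the most abundant of these genes in CPM, at 1.65, 3.15 and 2.19 CPM in 2D and 614, 393 and 472 in the animal libraries. All 3 animal libraries lay far above the 2D libraries, a log2 fold change of 7.72 ± 0.27 (SE; adjusted p = 7.78e-06). PIGR carries polymeric antibodies across epithelia and measured 0.0589, 0.3503 and 0.0592 CPM in 2D and 48.2, 24.2 and 47.9 in the animal libraries (log2 fold change 7.93 ± 0.52, adjusted p = 4.74e-05). Replicate 2 held about 2-fold less PIGR than the other animal libraries, and the groups did not overlap.

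The iron carrier TF rose from 0.5305, 0.584 and 1.01 to 265, 110.1 and 102 CPM, and replicate 1 was the highest. ACSS3, an acyl-CoA synthetase of mitochondria, had 1 read in each 2D library against 16.4, 28.3 and 35.1 CPM in the animal libraries, a pooled ratio of 451 (95% interval 154 to 2189). ADH1C, an alcohol dehydrogenase, had 3 reads in 2D, all in replicate 1, and 13.5, 48.3 and 17.3 CPM in the animal libraries. Its pooled ratio was 433 (95% interval 148 to 2102); ADH1A and ADH1B are near-identical copies, so its reads are uncertain. OR2I1P, an odorant receptor locus of the MHC region, measured 0.0589, 0.117 and 0.237 CPM in 2D and 70.5, 108 and 33.5 in the animal libraries. The collagen chain COL1A2 measured 0.0589, 0.117 and 0.296 CPM in 2D and 18.4, 40.7 and 10.01 in the animal libraries, and replicate 2 stood highest in both. For VCAM1, PDE4B, ZNF804A, EDNRB and FOXR2, singled out after their values were seen, the 2D libraries held 0 reads and each animal library at least 5 CPM. Of these, the phosphodiesterase PDE4B lay at 18.9, 14.4 and 9.34 CPM and the forkhead factor FOXR2 at 9.75, 6.35 and 9.87 CPM.

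The largest fall among genes averaging at least 10 CPM was in GLI2, the main transcriptional activator of Hedgehog signalling. It measured 36.6, 40.2 and 37.9 CPM in 2D and 0.133, 1.13 and 0.534 in the animal libraries (log2 fold change -6.02 ± 0.35, adjusted p = 3.29e-05). EEF1A2, the muscle and nerve form of a translation elongation factor, fell 38.1-fold, from 293, 269 and 266 to 5.44, 9.297 and 7.07 CPM. The groups lay far apart for both, and replicate 2 was the highest animal library. ENPP2 (autotaxin), which makes lysophosphatidic acid, measured 42.1, 39.3 and 37.1 CPM in 2D and 0.133, 2.65 and 0.467 in the animal libraries, so that replicate 2 alone stayed above 1 CPM. CYP1B1, a target of AHR, fell 37.1-fold. The creatine-synthesis enzyme GAMT fell 26.8-fold, the Rac activator PREX1 24.8-fold, the synaptic adhesion molecule NRXN2 24.4-fold and the actin crosslinker FLNC 20.6-fold. For ENPP2, CYP1B1, GAMT, PREX1, NRXN2 and FLNC the lowest 2D library was at least 10 times the highest animal library. The testis antigen MAGEC1, singled out after its values were seen, had 1 read in the animal libraries together, against 8.78, 6.598 and 7.64 CPM in 2D. Its fitted log2 fold change of -7.95 was a larger fall than that of GLI2, at a mean below 10 CPM.

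**Figure D2:**
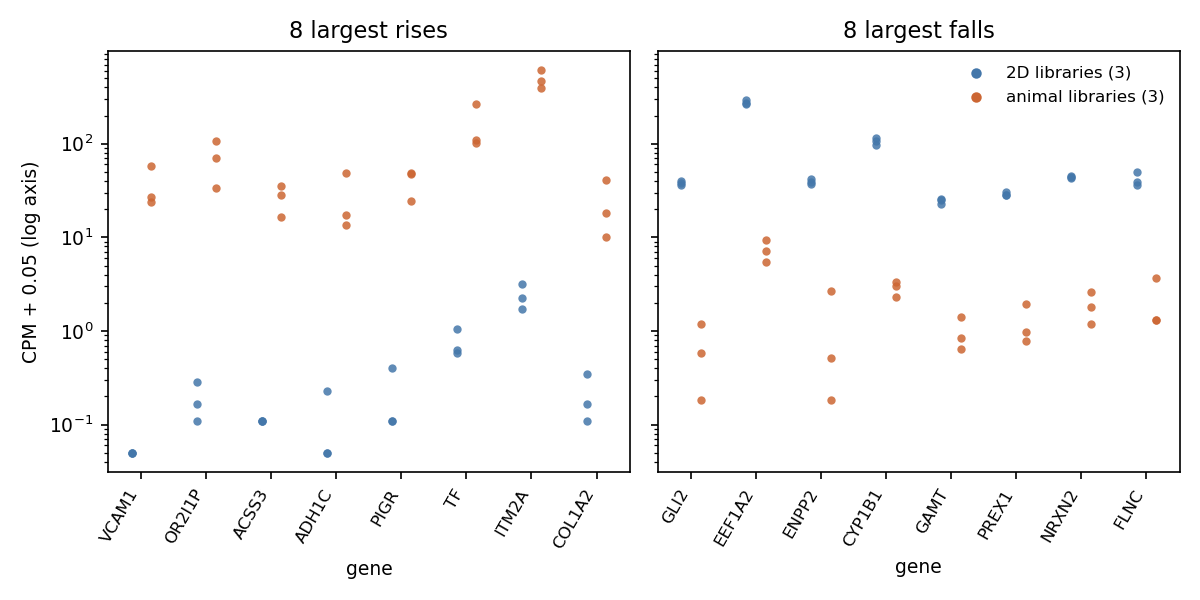
CPM plus 0.05 on a log axis for the 8 largest rises and 8 largest falls among genes averaging at least 10 CPM, 1 point per library. In each gene the 3 animal libraries lie on 1 side of all 3 2D libraries, and VCAM1 sits at the bottom in 2D with 0 reads.

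Plasma protein genes rose, with exceptions by class. Of 23 tested, 15 rose and 4 fell, a median log2 fold change of 2.05 against 0.03 over all genes. Members nearly silent in 2D, such as TTR, could be tested only through the animal libraries, which partly set this count and median. Carriers led, with 5 of 6 higher. ALB measured 2.65, 2.34 and 2.84 CPM in 2D and 128, 101 and 314 in the animal libraries, with replicate 3 the highest. AMBP, the precursor of alpha-1-microglobulin, was even across the animal libraries, at 51.6, 43.3 and 57.6 CPM against 1.83, 1.63 and 1.48 in 2D (log2 fold change 4.94 ± 0.16, adjusted p = 3.76e-06). AHSG (fetuin-A) rose from 3.301, 3.68 and 3.38 to 32.6, 15.3 and 80.7 CPM. RBP4, the retinol carrier, went the other way, at 17.9, 13.7 and 15.6 CPM in 2D and 0.5303, 8.62 and 4.07 in the animal libraries, with replicate 2 nearest to 2D. RBP4 lost its call in 9 alternative fits, DESeq2 and the removal of any 1 of the 2D libraries among them, with an adjusted p of up to 0.165.

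Clotting genes rose in 6 of 8. Fibrinogen is built from FGA, FGB and FGG, and all 3 chains rose. FGB measured 1.77, 1.93 and 2.01 CPM in 2D and 18.03, 50.4 and 42.2 in the animal libraries (log2 fold change 4.27 ± 0.42, adjusted p = 0.000196), FGG rose to 7.03, 26.5 and 8.21 CPM from below 1, and FGA rose 4.56-fold. Prothrombin (F2) rose from 1.002, 1.28 and 1.01 to 8.49, 10.1 and 13.7 CPM. Factor V did not pass, at 84.5, 99.1 and 96.6 CPM in 2D and 119, 77.7 and 135 in the animal libraries, which overlap. Among protease inhibitors, ITIH2, an inter-alpha-trypsin inhibitor chain that binds hyaluronan, measured 10.1, 13.8 and 11.4 CPM in 2D and 178, 165 and 179 in the animal libraries, the narrowest spread of any large rise in the list (log2 fold change 3.88 ± 0.12, adjusted p = 3.35e-06). SERPINA1 (alpha-1-antitrypsin) had 3.95, 5.897 and 3.67 CPM in 2D and 0.331, 52.6 and 3.67 in the animal libraries, so its high animal mean rested on replicate 2. PLG (plasminogen) rose 2.73-fold and lost its call without any 1 of the 2D libraries and in the 9-library fit, and SERPINA1 changed sign without animal replicate 2.

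Apolipoproteins moved apart from the rest of the list. APOB, the backbone of very low density lipoprotein, fell from 26.8, 27.9 and 24.6 to 3.91, 9.98 and 8.01 CPM (adjusted p = 0.001304), and APOA1 and APOE fell 10.6-fold and 2.89-fold from levels below 5 CPM. APOH alone rose, 1.704-fold. No animal library reached the 2D range for APOB, APOA1 or APOE. In bulk samples such as these, fewer cells of a type and less RNA per cell cannot be told apart. APOA1 and APOH lost their calls in the 9-library fit.

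Acute phase and complement genes rose in 13 of 16 tested, with 1 lower (median 1.68). The complement components C3 and CFI, the latter a protease that inactivates C3b, rose 10.6-fold and 16.2-fold, and C5 rose 2.11-fold. C3 measured 1.36, 1.05 and 0.829 CPM in 2D and 14.7, 13.1 and 6.74 in the animal libraries. LCN2, an iron-siderophore binding protein, rose to 17.3, 35.9 and 12.5 CPM and FGL1 to 35.3, 60.3 and 32.96 CPM, both highest in replicate 2. The classical inflammation markers CRP, SAA1 and SAA2 stayed below 0.3 CPM in every library and were not tested. HAMP, the iron hormone hepcidin, fell 4.74-fold at levels of 2.13 CPM or less. C5 and HAMP lost their calls in the 9-library fit.

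Of 22 hepatocyte enzymes 13 rose and 2 fell (median 1.32). CPS1, the entry enzyme of the urea cycle, rose to 7.23, 8.69 and 7.41 CPM. The drug-metabolising CYP2B6 rose 22.5-fold, to 63.05, 80.95 and 43.8 CPM (adjusted p = 3.26e-05), and CYP2C8 rose as well, while CYP3A4 did not pass (0.943, 0.934 and 1.303 CPM in 2D and 1.72, 1.89 and 1.33 in the animal libraries). These cytochromes have close relatives, so single members are less certain. HPD, which degrades tyrosine, fell from 17.5, 16.99 and 15.3 to 0.5303, 3.401 and 3.002 CPM, and the sterol hydroxylase CYP27A1 fell 2.65-fold. FBP1 and CYP2E1 rose with replicate 2 at least 2 times above the other animal libraries; CYP2E1 lay at 1.52, 15.1 and 6.205 CPM. CYP27A1 lost its call in the 9-library fit, and FBP1 there and without any 1 of the 2D libraries.

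Liver transcription factors moved in both directions. Of 15 tested, 8 rose and 5 fell, and with any 1 of the 2D libraries left out only 2 or 3 were lower. FOXA2, a pioneer factor of endoderm, fell from 78.6, 83.6 and 83.6 to 57.6, 58.6 and 72.6 CPM (log2 fold change -0.38 ± 0.10, adjusted p = 0.0126), CEBPA, CEBPB and PPARA fell too, and HNF4A did not pass, at 89.9, 96.99 and 94.1 CPM in 2D and 86.4, 126 and 83.997 in the animal libraries. FOXA3 rose 4.596-fold and FOXA1 2.39-fold, the bile acid receptor NR1H4 3.63-fold and the xenobiotic receptor NR1I2 2.09-fold. NR0B2 (SHP), a nuclear repressor induced by bile acids, had 3 reads in the 2D libraries together and 0.994, 0.831 and 5.07 CPM in the animal libraries, highest in replicate 3, a pooled ratio of 40.02 (95% interval 13.3 to 197). ONECUT1, a factor of early liver and bile ducts, rose from 0.472, 0.117 and 0.474 to 2.59, 2.12 and 3.603 CPM. SOX9, a factor of bile ducts and liver progenitors, rose evenly from 3.18, 3.45 and 3.85 to 62.1, 56.7 and 53.2 CPM (log2 fold change 4.03 ± 0.11, adjusted p = 3.35e-06). IGF2, a fetal growth factor, had 1.59, 1.87 and 1.24 CPM in 2D and was at or under the floor of 3 counts in every animal library. All 5 falls, NR1I2 and IGF2 lost their calls in the 9-library fit, and CEBPA, CEBPB and PPARA also without single libraries. HNF4A changed sign without animal replicate 2.

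**Figure D3:**
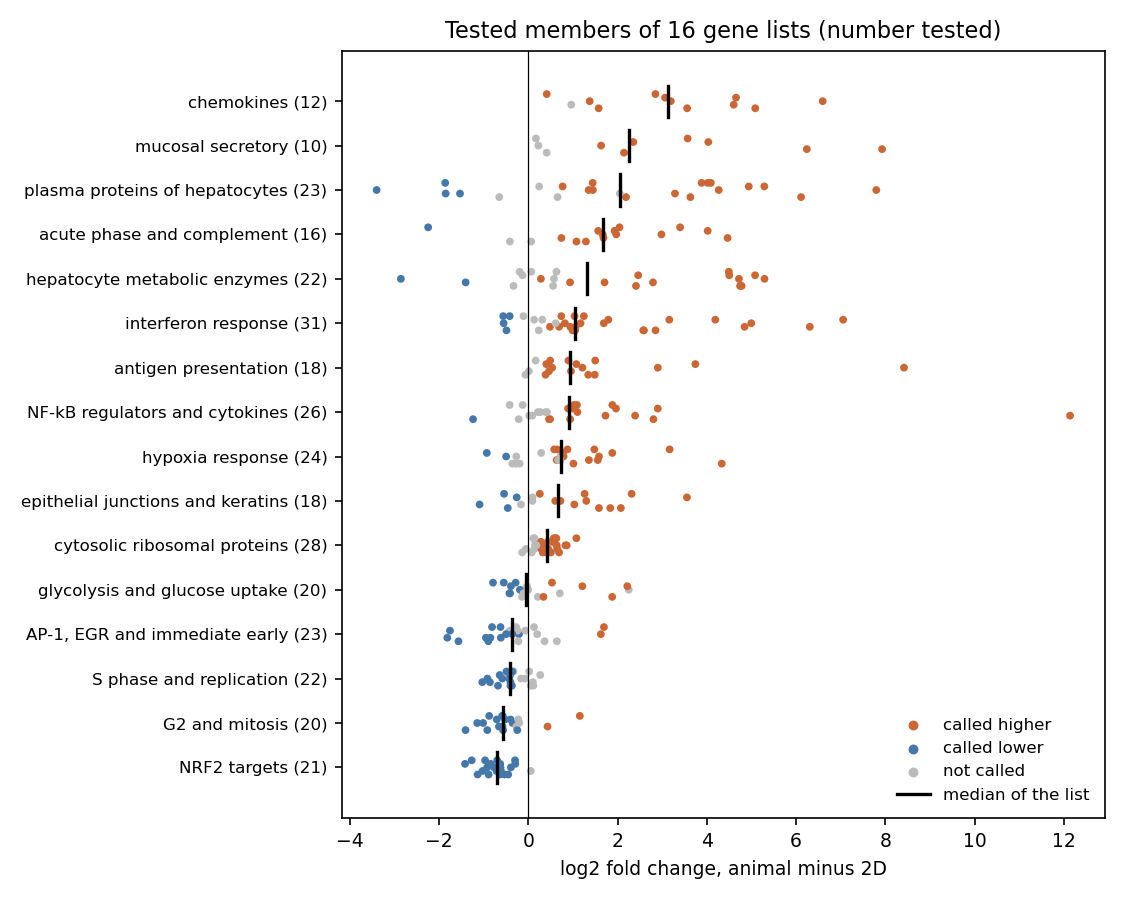
Log2 fold change (animal minus 2D) of every tested member of 16 gene lists, 1 point per gene, with the median of each list as a black bar. Chemokines have the highest median (3.13) and NRF2 targets the lowest (-0.70), and the plasma protein list holds both rises and 4 falls. Members nearly silent in 2D appear only where the animal libraries hold enough of their reads.

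Chemokines rose in 11 of 12 tested, with 0 lower and a median of 3.13. The other 9 of the 21 were not tested. Members nearly silent in 2D, such as CXCL1 and CXCL14, could be tested only through the animal libraries. The low-count filter thus partly set these counts and the median. All 8 tested CXC ligands rose; these include the neutrophil attractants that bind CXCR2. CXCL5 had 3.65, 2.98 and 3.02 CPM in 2D and 40.2, 116 and 78.9 in the animal libraries, highest in replicate 2 (log2 fold change 4.60 ± 0.42, adjusted p = 0.000153). CXCL1 rose from at most 0.177 to 2.85, 7.86 and 4.14 CPM and CXCL8 to 10.1, 15.3 and 8.21 CPM. CXCL14, kept by resting epithelia, rose from 1 read in 2D to 2.98, 3.704 and 1.33 CPM. CCL20, which attracts CCR6-bearing lymphocytes, rose to 29.04, 21.4 and 25.6 CPM from 2.71, 3.21 and 3.14, and membrane-bound CX3CL1 to 10.7, 6.58 and 8.74 CPM. CXCL9, CXCL10 and CXCL11, the interferon-gamma-induced ligands of CXCR3, had at most 1 read in any library, and CCL2, CCL3 and CCL4 had at most 1 in all.

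Among NF-kB regulators and cytokines 16 of 26 rose and 1 fell (median 0.90). The noncanonical subunits NFKB2 and RELB rose 2.14-fold and 1.99-fold, and NFKB1 1.38-fold, while RELA did not pass (142, 133 and 137 CPM in 2D and 157, 144 and 138 in the animal libraries). Inhibitors made in response to the pathway rose as well: TNFAIP3 measured 17.5, 17.3 and 17.4 CPM in 2D and 70.2, 82.2 and 51.6 in the animal libraries, and NFKBIA and NFKBIE rose 1.402-fold and 2.03-fold. The survival factor BIRC3 rose from 31.8, 25.6 and 27.1 to 114, 91.3 and 106 CPM and IL32 from 78.1, 77.5 and 83.6 to 248, 326 and 219.6 CPM, both without overlap. IL1A and IL1B rose to 10.2, 4.99 and 4.27 and 5.44, 3.401 and 2.802 CPM. CSF1, the macrophage growth factor, fell from 170.0, 155 and 160.1 to 65.6, 70.7 and 69.3 CPM (log2 fold change -1.24 ± 0.07, adjusted p = 2.67e-05). IL6 had 5 reads in 2D and 0 in the animal libraries, which allows up to 3 counts in each. RELB, NFKB1, NFKBIA, NFKBIE, BIRC3 and CSF1 lost their calls in the 9-library fit.

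Of 31 interferon response genes 22 rose and 4 fell (median 1.04). IFI27 had 0.295, 0.234 and 0.711 CPM in 2D and 17.1, 12.8 and 10.3 in the animal libraries and IFI6 1.65, 1.87 and 1.72 CPM in 2D and 9.21, 9.37 and 12.7 in the animal libraries. IFI44L and IFI44 rose from at most 0.117 CPM to between 2.49 and 8.14 CPM. IFITM3, a membrane protein that blocks viral entry, measured 102, 98.3 and 109 CPM in 2D and 240.2, 237 and 219 in the animal libraries (log2 fold change 1.17 ± 0.07, adjusted p = 2.99e-05), and its neighbour IFITM2, with a similar sequence, rose 6.03-fold. The RNA sensor IFIH1 rose to 21.3, 19.8 and 15.9 CPM from 2.48, 3.21 and 2.19, and the factors IRF7, IRF9, IRF1 and STAT2 rose 2.37-fold, 1.92-fold, 1.77-fold and 2.07-fold. ISG15, OAS2, OAS3 and OASL fell. OAS3, which makes the activator of RNase L, measured 312, 317 and 305 CPM in 2D and 195, 228 and 214 in the animal libraries (log2 fold change -0.55 ± 0.07, adjusted p = 0.000523) and ISG15 29.2, 29.02 and 27.1 CPM in 2D and 18.8, 17.01 and 21.9 in the animal libraries. For both, every animal library lay below every 2D library. IFITM3, IRF1 and all 4 falls lost their calls in the 9-library fit, and OASL also without 2D replicate 1.

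Antigen presentation genes rose in 15 of 18, with 0 lower (median 0.93). For class I, the immunoproteasome subunits PSMB9 and PSMB8 rose 7.48-fold and 2.54-fold, the peptide transporter TAP1 1.87-fold and the light chain B2M 1.45-fold. HLA-B rose from 8.9004, 10.5 and 8.29 to 18.1, 27.7 and 18.5 CPM, and HLA-C did not pass; the HLA genes are near-identical in part, and their reads may be split. For class II, CD74, the invariant chain, rose to 24.9, 26.7 and 20.5 CPM from 1.83, 1.401 and 2.13, and HLA-DMB, which loads peptides, had 0 reads in 2D and 3.65, 2.49 and 2.002 CPM in the animal libraries, at least 15.4-fold higher. The chains that present the peptides stayed near 0: HLA-DRA and HLA-DRB1 had 0 reads in every animal library. B2M lost its call in the 9-library fit.

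Leukocyte markers stood beside these rises as follows. Of 17 fixed macrophage and leukocyte markers 7 were tested and all 7 rose, where 29.5% of all genes rose. Markers nearly silent in 2D could be tested only through reads in the animal libraries. The count of 7 was thus partly set by the low-count filter, so it cannot be compared with that share. The summed level of the 17 markers was 116 to 123 CPM in 2D and 197 to 247 CPM in the animal libraries, most of it from CD68. CD74, given above, is counted in this list too. Without 2D replicate 1, 4 of the 7 were called. CD68, a lysosomal protein, was at 108, 114 and 112 CPM in 2D and 196, 125 and 192 in the animal libraries. LYZ rose to 2.72, 10.2 and 6.27 CPM and the scavenger receptor CD163 to 3.38, 6.803 and 6.005 CPM. The defining markers TYROBP, FCER1G, S100A8 and S100A9 had at most 1 read in each animal library, PTPRC lay at 1.27 CPM or less and CD14 at 0.267 CPM or less. The part of host leukocytes in the inflammatory and antigen presentation rises was not tested. Of 13 endothelial markers 5 were tested and 3 rose, beside the same 29.5% of all genes and under the same filter. The summed level of the 13 markers was 60.6 to 74.0 CPM in 2D and 57.4 to 83.1 CPM in the animal libraries. EMCN, PLVAP and VWF had at most 1 read in any animal library and CDH5 was at 0.796 CPM or less, whereas KDR rose to 4.71, 5.06 and 16.8 CPM. TEK and ENG rose as well, and ENG lost its call in the 9-library fit.

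AHR targets fell, while AHR itself was not called. AHR measured 117, 132 and 123 CPM in 2D and 163, 119 and 156 in the animal libraries, which overlap (log2 fold change 0.23 ± 0.12, adjusted p = 0.134). Without animal replicate 2, the lowest of the 3, AHR was called higher (log2 fold change 0.36, adjusted p = 0.00134). Of the other 8 genes in its group 7 fell and 0 rose, a median of -1.21 with AHR included, against 27.9% of all genes lower. CYP1B1, which oxidises estrogens and aromatic compounds, went from 114, 97.1 and 107 to 2.98, 3.33 and 2.27 CPM (log2 fold change -5.21 ± 0.14, adjusted p = 3.35e-06). CYP1A1 went from 2.95, 1.52 and 2.61 CPM to 1 read in each animal library. TIPARP, a feedback inhibitor of AHR, fell 2.32-fold, the repressor AHRR 1.94-fold and the aldehyde dehydrogenase ALDH3A1 2.47-fold. The growth factor EREG went from 148, 142 and 135 to 37.9, 30.2 and 49.04 CPM. Each animal library lay below all 2D libraries for these 6. AHRR was at 2.07 CPM or less in every library. TIPARP, ALDH3A1, EREG and NQO1 lost their calls in the 9-library fit. AHRR lost it there, in DESeq2 and in 5 other alternative fits.

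Enzymes around tryptophan rose in 5 of 8, with 0 lower. TDO2, the hepatic dioxygenase that starts its breakdown, rose from 6.19, 7.299 and 8.06 to 23.9, 17.5 and 29.02 CPM. IL4I1, an amino acid oxidase that can make AHR ligands and is named in the series title, measured 0.295, 0.642 and 0.415 CPM in 2D and 2.72, 1.74 and 2.07 in the animal libraries (log2 fold change 2.25 ± 0.36, adjusted p = 0.00134). The gene overlaps NUP62, so its reads are less certain. IDO1 and IDO2 had 0 reads throughout, and KYNU did not pass. SP1, a general transcription factor that the title also names, measured 159, 165 and 163 CPM in 2D and 166, 182 and 149.6 in the animal libraries (log2 fold change 0.03 ± 0.08, adjusted p = 0.762). It was not called, and its sign turned without animal replicate 2. The animal libraries were also compared with the 3D libraries, in a fit of the 9 libraries of the first experiment; both comparisons share the animal libraries. There CYP1B1 was lower in the animal than in the 3D libraries (log2 fold change -6.22, adjusted p = 0.00139), as were CYP1A1 (-7.86, 0.000307) and IL4I1 (-2.46, 0.00481), while AHR was higher (1.71, 0.01403). In that comparison 18.6% of 12925 genes were higher and 22.9% lower. In 3D replicates 1 and 2 the departure from the 2D mean followed GC content across genes (rank correlations 0.711 and 0.804), against 0.0949 in 3D replicate 3. Leaving out these 2 libraries keeps only 1 library of 3D, so that fit holds no spread among 3D libraries. The same 4 fold changes were then -7.31, -7.72, -1.50 and 0.88.

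The list of NRF2 targets, which also holds the gene of NRF2 and that of its inhibitor, fell in 20 of 21. It had 0 higher and a median of -0.70. SRXN1, which repairs oxidised peroxiredoxins, measured 751, 711 and 708 CPM in 2D and 236, 314 and 261 in the animal libraries (log2 fold change -1.42 ± 0.11, adjusted p = 5.58e-05). TXNRD1, thioredoxin reductase, went from 4555, 4543 and 4535 to 2209, 2464 and 2293 CPM, and glutathione reductase GSR from 577, 552 and 548 to 234, 264 and 264 CPM. In all 3 genes the highest animal library lay far below the lowest 2D library. The aldo-keto reductase AKR1C1, whose relatives share much of its sequence, fell 2.41-fold, the glutathione-synthesis subunits GCLM and GCLC 1.85-fold and 1.55-fold, and haem oxygenase HMOX1 2.04-fold. NFE2L2, the gene of NRF2 itself, fell 1.56-fold and its inhibitor KEAP1 1.31-fold. TXN was the member not called, at 895, 836 and 867 CPM in 2D and 814, 997 and 891 in the animal libraries. NQO1 is a target of both NRF2 and AHR and is counted in both lists. AKR1C1, GCLM, GCLC, HMOX1, NFE2L2, NQO1 and KEAP1 lost their calls in the 9-library fit, and KEAP1 also without 2D replicate 1 or 2.

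**Figure D4:**
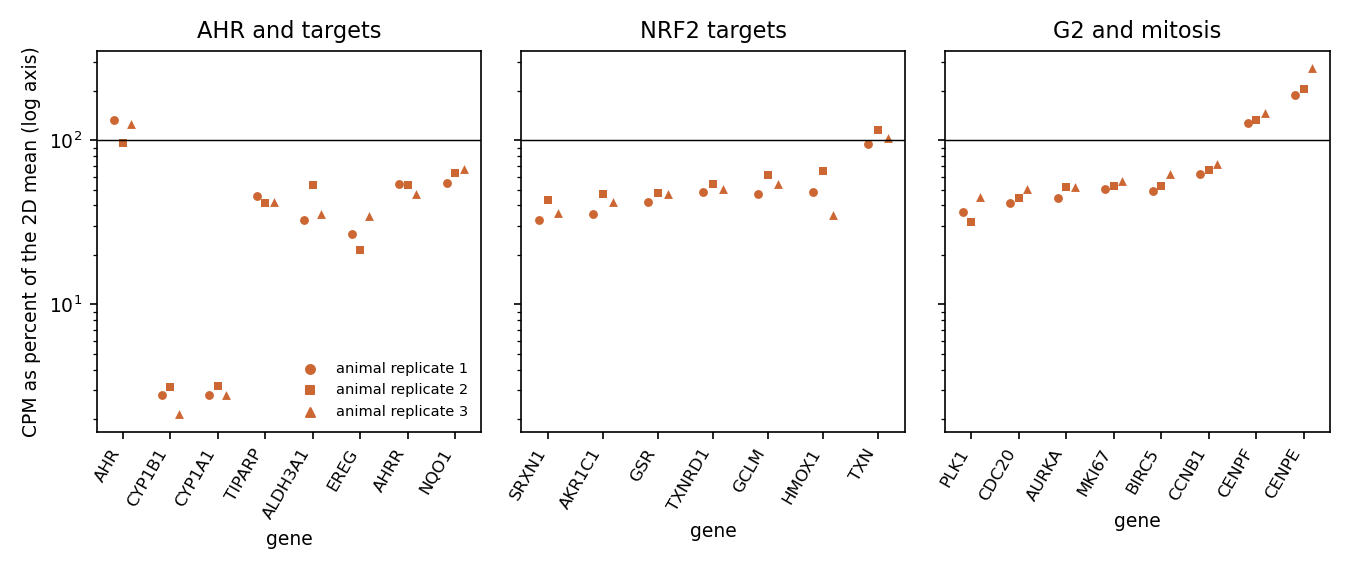
CPM of each animal library as a percent of the 2D mean, on a log axis with a line at 100, for AHR and its targets, NRF2 targets, and genes of G2 and mitosis. CYP1B1 and CYP1A1 lie between 2.14 and 3.21% while AHR lies between 95.6 and 132%, the NRF2 targets other than TXN lie below the line, and CENPE and CENPF lie above the line among mitotic genes.

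Targets of ATF4, the factor of amino acid shortage, fell in 10 of 19 and rose in 3 (median -0.45), which became 0 without 2D replicate 1 and 1 without 2D replicate 2. SESN2, which restrains mTORC1, fell 4.67-fold to 8.62, 14.4 and 7.41 CPM, and the amino acid transporter chains SLC3A2 and SLC7A11 fell 1.76-fold and 1.54-fold, while asparagine synthetase ASNS rose 1.28-fold. Endoplasmic reticulum folding genes fell in 13 of 22 and rose in 4, which became 1 or 2 with any 1 of the 2D libraries left out. HSPA5 (BiP) went from 883, 902 and 869 to 611, 596 and 495 CPM and SDF2L1 fell 2.31-fold, while HSP90B1 rose 1.34-fold. Of 22 heat shock chaperones 8 fell and 1 rose, and HSF1, their activator, fell from 224, 214 and 221 to 101, 131 and 90.001 CPM (log2 fold change -1.03 ± 0.13, adjusted p = 0.000485). HSPH1 had 163, 344 and 103 CPM in the animal libraries around a 2D level of 171, 172 and 170.3, so the animal libraries disagreed in direction. Without animal replicate 3, 7 chaperones were higher instead of 1, and with any 1 of the 2D libraries left out 0 were. SLC3A2, SLC7A11, ASNS, SDF2L1, HSP90B1 and HSF1 lost their calls in the 9-library fit, and ASNS also without 2D replicate 1.

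Growth factor signalling genes split by member. Of the EGF family, EGFR fell from 275, 286 and 272 to 109, 94.3 and 103 CPM (log2 fold change -1.45 ± 0.07, adjusted p = 2.03e-05), and its ligands AREG, EREG, TGFA and BTC fell 3.21-fold, 3.62-fold, 2.15-fold and 2.33-fold. ERBB3 rose from 49.3, 55.5 and 55.9 to 178, 190.2 and 143 CPM and ERBB2 2.03-fold. Hepatocyte growth factor HGF had 0.825, 0.934 and 1.24 CPM in 2D and 90.2, 8.77 and 83.6 in the animal libraries, so that replicate 2 held about 10 times less than the others (log2 fold change 5.92 ± 0.97, adjusted p = 0.00178). Its receptor MET did not pass, at 8044, 8817 and 8209 CPM in 2D and 9685, 7725 and 8846 in the animal libraries. IGFBP3 and IGFBP7, which bind insulin-like growth factors or cell surfaces, rose 6.68-fold and 71.5-fold. EGFR, EREG and ERBB2 lost their calls in the 9-library fit, and ERBB2 also without any 1 of the 2D libraries.

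Immediate early genes, which follow growth factor signals, fell in 12 of 23 and rose in 2 (median -0.36). MYC measured 295, 297 and 304 CPM in 2D and 82.8, 153 and 68.1 in the animal libraries, highest in replicate 2 among the animal libraries. EGR1 fell 3.52-fold to 23.5, 17.8 and 15.8 CPM, and the ERK phosphatases DUSP4 and DUSP5 fell 1.54-fold and 1.93-fold. FOS, JUN and JUNB did not pass. NR4A1 and FOSB rose, and without animal replicate 3, 5 genes of this list were higher, without 2D replicate 2, 1. Among YAP and TEAD targets 8 of 16 fell and 3 rose; ANKRD1 fell to 0.464, 1.59 and 0.734 CPM from 9.195, 6.54 and 6.58 and FJX1 to 1.33, 0.983 and 1.53 from 7.31, 7.36 and 6.69, while the classical targets CCN1 and CCN2 did not pass. The BMP targets ID1, ID2 and ID3 fell 1.91-fold, 1.68-fold and 2.896-fold, and BMP2 2.33-fold. DUSP4 lost its call in the 9-library fit and FOSB without 2D replicate 2, while without animal replicate 3 FOS, JUNB and CCN1 were called higher.

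Of 20 genes of G2 and mitosis 15 fell and 2 rose, each by less than 3-fold (median -0.57). The mitotic kinases PLK1 and AURKA had 286, 273 and 280.2 CPM in 2D and 102, 88.4 and 126 in the animal libraries and 139.9, 142 and 141 CPM in 2D and 62.8, 73.1 and 73.4 in the animal libraries (log2 fold changes -1.41 ± 0.12 and -1.01 ± 0.08; adjusted p = 9.41e-05 and 5.93e-05). The proliferation marker MKI67 went from 399.9, 427 and 401 to 205, 214 and 230.1 CPM. CENPE and CENPF, large kinetochore proteins, rose, CENPE from 19.04, 15.1 and 18.01 to 32.7, 35.6 and 47.6 CPM. Of 22 replication genes 13 fell and 0 rose (median -0.40), with the ribonucleotide reductase subunit RRM2 at 133, 127 and 125 CPM in 2D and 57.3, 62.4 and 68.2 in the animal libraries and the factor E2F1 1.89-fold lower. Without animal replicate 2, 2 replication genes were higher. Of 13 tested CDK inhibitors, G1 cyclins and p53 pathway genes 6 fell and 5 rose, and 2 rose with any 1 of the 2D libraries or animal replicate 1 left out and 3 in DESeq2. Cyclins CCND1 and CCND3 fell 1.72-fold and 2.49-fold, and the inhibitor CDKN2B rose 1.56-fold. The inhibitor CDKN1A (p21), a target of p53, fell from 169, 174 and 172 to 60.6, 101 and 45.3 CPM as well, while MDM2, another p53 target, rose 1.51-fold. CENPE, CENPF, E2F1, CCND3, CDKN1A, CDKN2B and MDM2 lost their calls in the 9-library fit.

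Of 28 ribosomal protein genes 19 rose and 0 fell, a median of 0.42. RPS27 rose from 339, 301 and 356 to 788, 663 and 650.0 CPM and RPS24 1.78-fold, and RPLP0 did not pass (1523, 1482 and 1465 CPM in 2D and 1684, 1500.1 and 1532 in the animal libraries). Most of these genes have processed copies elsewhere in the genome, so the split of their reads is uncertain. Of the 13 mitochondrially encoded subunits 4 rose and 3 fell, with MT-ND3 at 639, 569 and 694 CPM in 2D and 1359.7, 1739 and 1278 in the animal libraries, and of 22 nuclear ones 3 rose and 8 fell. Leaving out 2D replicate 1, 2D replicate 2, animal replicate 1 or animal replicate 3 left 2 mitochondrial genes higher rather than 4, and without animal replicate 3, 5 rather than 3 were lower. Without 2D replicate 3, 5 nuclear subunits were lower rather than 8.

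Hypoxia genes rose in 14 of 24 and fell in 2 (median 0.72). The carbonic anhydrase CA9, a standard marker of low oxygen, measured 14.1, 24.8 and 22.2 CPM in 2D and 263, 92.3 and 193 in the animal libraries and CA12 283, 327 and 323 CPM in 2D and 872, 826 and 695 in the animal libraries (log2 fold changes 3.17 ± 0.40 and 1.36 ± 0.10; adjusted p = 0.000568 and 5.75e-05). The prolyl hydroxylase EGLN3 rose from below 1 to 20.7, 12.1 and 10.3 CPM, while its relative EGLN1 fell 1.91-fold. NDRG1 measured 496, 719 and 682 CPM in 2D and 2532, 1902 and 1146 in the animal libraries and VEGFA 98.6, 126 and 124 CPM in 2D and 328, 177 and 198 in the animal libraries. Replicate 1 was the highest animal library in all 14 hypoxia genes that rose, against 37.9% of all genes that rose. EPAS1 (HIF-2 alpha) fell 1.41-fold and HIF1A did not pass. VEGFA, EGLN1 and EPAS1 lost their calls in the 9-library fit, and HIF1A was called lower without animal replicate 2 and in DESeq2.

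Glycolysis genes did not move as 1 group. Of 20 tested, 5 rose and 7 fell (median -0.06). ENO2, ALDOC, PDK1, LDHA and TPI1 rose, ENO2 from 66.5, 81.3 and 87.4 to 345, 249 and 272 CPM (adjusted p = 7.59e-05), and all 5 were highest in replicate 1. ENO1, PGK1, PGAM1, PKM, ALDOA, HK1 and PFKP fell, PFKP from 379.8, 372 and 378 to 233, 206 and 213 CPM (adjusted p = 8.13e-05). With any 1 of the 2D libraries left out, 4 genes were lower rather than 7. In the comparison with the 3D libraries, 18.6% of all genes were higher in the animal libraries and 22.9% lower. The list counts against 3D in this paragraph have to be read beside these shares. Of the 20 glycolysis genes 15 were lower in the animal libraries and 0 higher, and of the 24 hypoxia genes 11 were lower and 1 higher. Without 3D replicates 1 and 2 only 1 library of 3D remains, so only fold changes are given for that fit. The median log2 fold change then went from -0.83 to -1.27 for the hypoxia genes and from -1.48 to -0.90 for the glycolysis genes. Against all 3D libraries CA9 had a log2 fold change of -1.17 (adjusted p = 0.0404), NDRG1 of -1.88 (0.00314) and ENO2 of -1.18 (0.0162). With 3D replicates 1 and 2 left out, CA9 had -1.24 and ENO2 -1.77. MKI67 had a log2 fold change of 1.11 against 3D (adjusted p = 0.00176) and of -0.92 against 2D. Of the genes of G2 and mitosis 11 of 20 were higher and 1 lower than in the 3D libraries, and of the replication genes 12 of 22 were higher and 0 lower. Without 3D replicates 1 and 2, the medians of the mitotic and replication genes were 0.88 and 1.30, against 0.83 and 0.82 with them. PDK1, LDHA, TPI1 and all falls except that of PFKP lost their calls in the 9-library fit, and PGK1, PKM and ALDOA also without any 1 of the 2D libraries.

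Epithelial junction and keratin genes rose in 11 of 18 and fell in 4 (median 0.66), of which 2 were lower without 2D replicate 3. E-cadherin (CDH1) measured 27.2, 37.7 and 35.7 CPM in 2D and 105, 127 and 69.7 in the animal libraries and the biliary keratin KRT7 8.37, 8.7002 and 8.41 CPM in 2D and 125, 138 and 36.6 in the animal libraries, lowest in replicate 3 among the animal libraries. The desmosomal cadherin DSC2 rose 3.57-fold, claudins CLDN1, CLDN2, CLDN3 and CLDN7 rose, and CLDN4, TJP1 and JUP fell. Mucosal secretory genes rose in 7 of 10, with 0 lower: the antiprotease SLPI from at most 0.592 to 10.8, 42.6 and 19.9 CPM, TFF3 to 28.2, 36.6 and 14.6 CPM, and the peroxide-producing oxidase DUOX2 to 10.3, 17.7 and 4.34 CPM. DUOX2 was lower in the animal than in the 3D libraries (-2.51 on the log2 scale, adjusted p = 0.00407) and PIGR higher (4.61, 0.000548). CP (ceruloplasmin), a copper-carrying ferroxidase, had 6.96, 12.5 and 10.7 CPM in 2D and 532, 351 and 270.3 in the animal libraries (log2 fold change 5.26 ± 0.33, adjusted p = 4.07e-05). The metallothioneins MT2A and MT1X rose 2.27-fold and 3.86-fold. Of the 10 metallothionein and iron genes tested 5 rose and 2 fell, and with any 1 of the 2D libraries left out 3 were higher. The protease MMP7 rose 4.99-fold, to 447, 418 and 353 CPM. DSC2, CLDN1, CLDN2, CLDN3, CLDN4, TJP1, JUP and MT2A lost their calls in the 9-library fit, and CLDN2 and CLDN3 also without any 1 of the 2D libraries.

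Of 28 tested collagen and matrix genes 13 rose and 5 fell (median 0.15). COL1A1, the main chain of type I collagen, had 4.66, 4.32 and 4.56 CPM in 2D and 132, 271 and 66.4 in the animal libraries, COL3A1 0.707, 0.934 and 0.7702 CPM in 2D and 28.5, 73.1 and 19.7 in the animal libraries and the collagen-binding SPARC 1.59, 1.46 and 0.829 CPM in 2D and 32.3, 78.005 and 21.5 in the animal libraries. COL4A1 rose from at most 1 read to 7.29, 14.4 and 4.47 CPM, whereas its partner chain COL4A2 fell 1.98-fold. COL6A3, a chain of type VI collagen, fell from 66.3, 75.3 and 71.1 to 6.56, 3.17 and 13.01 CPM (log2 fold change -3.21 ± 0.39, adjusted p = 0.000473), the basement membrane COL18A1 fell 3.55-fold and the inhibitor TIMP2 4.34-fold. The collagen-degrading membrane protease MMP14 and the proteoglycan DCN (decorin) rose 3.81-fold and 3.42-fold, MMP14 from 30.7, 31.5 and 31.5 to 119, 168 and 71.2 CPM, and MMP7, given above, is counted in this list too. Fibronectin (FN1) did not pass, at 6343, 7504 and 6759 CPM in 2D and 5498, 7233 and 3841 in the animal libraries. COL4A2 lost its call in the 9-library fit, and without animal replicate 2 FN1 was called lower.

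Of 16 fibroblast and pericyte markers 11 were tested, and 7 rose and 1 fell, where 29.5% of all genes rose and 27.9% fell. Markers nearly silent in 2D could be tested only through the animal libraries, so the low-count filter partly set this count. The summed level of the 16 markers was 193 to 216 CPM in 2D and 377, 696 and 273 CPM in the animal libraries. ACTA2, smooth muscle actin, rose from at most 0.0589 to 5.04, 9.07 and 2.07 CPM. The surface markers THY1 and PDGFRA stayed at 0 and at 0.605 CPM or less in the animal libraries, and PDGFRB at 1.51 CPM or less. All 7 markers that rose were highest in replicate 2, as were 12 of the 13 matrix genes that rose, against 33.1% of all genes that rose. The lists overlap: all of these 7 markers but ACTA2, 6 genes, are among the 13 matrix genes. Haemoglobin HBB was also highest there, at 0.994, 3.099 and 0.667 CPM. The part of host fibroblasts in these rises was not tested.

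Replicate 2 stood apart in further genes. KRT19, a bile duct keratin, measured 2.12, 96.1 and 8.81 CPM in the animal libraries against 5.72, 4.61 and 5.09 in 2D, and the smooth muscle gene TAGLN 6.56, 30.1 and 4.603 CPM against 4.83, 4.73 and 4.15 in 2D. The groups overlapped for KRT19, TAGLN and SERPINA1, and none was called (adjusted p = 0.0818, 0.0818 and 0.207). Without replicate 2, 4260 genes were higher and 4105 lower, against 3751 and 3538 with it. The plasma protein list then still had 15 higher and 4 lower, while 5 hepatocyte enzymes were lower rather than 2. Replicate 3 was the highest library for ALB, AHSG and AFP and for CLDN2 at 6.497, 19.95 and 51.5 CPM, and replicate 1 for TF and CP. The 3 animal libraries thus ranked differently by list: replicate 1 was first for the hypoxia genes that rose, replicate 2 for 12 of the 13 matrix genes that rose, and among the 15 plasma protein genes that rose replicates 2 and 3 were each first for 6 and replicate 1 for 3.

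**Figure D5:**
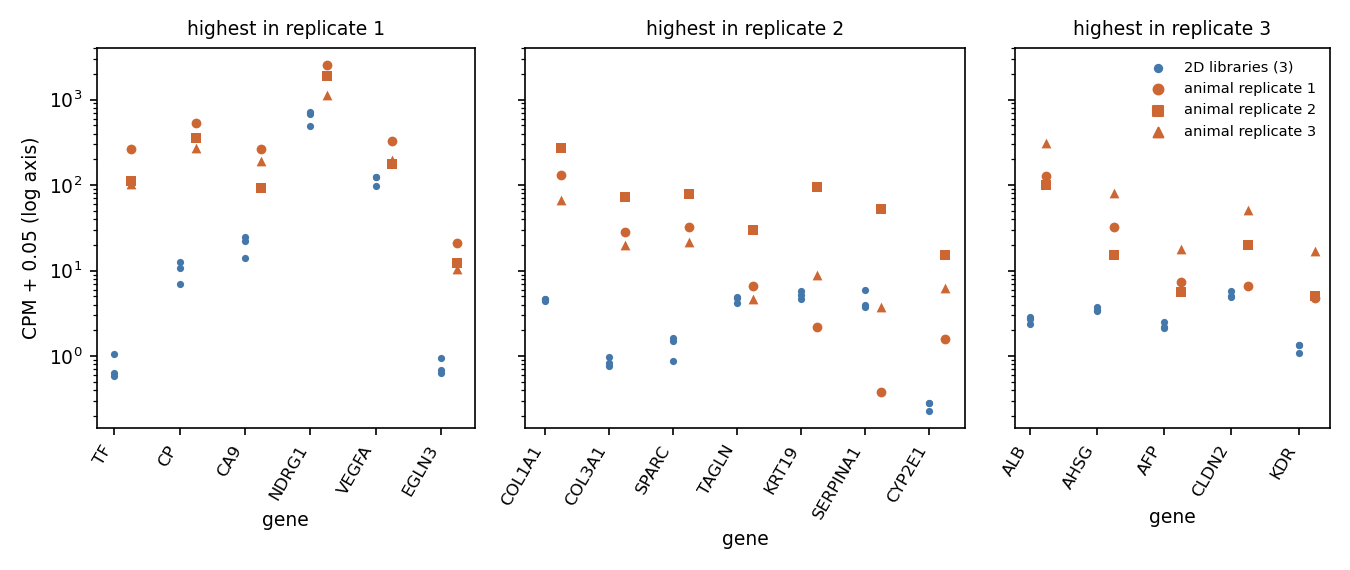
CPM plus 0.05 on a log axis for 18 genes grouped by the animal library in which they were highest, with the 3 2D libraries as small blue points and each animal library by its own symbol. SERPINA1 and KRT19 lie near or below the 2D points in replicates 1 and 3 and far above them in replicate 2.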

How the data were processed

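Gene expression was measured by RNA sequencing in 6 libraries, 3 from 2D culture and 3 from the animal model. The authors deposited raw read counts per gene symbol, and HISAT2 and hg19 are the aligner and build named, per the submitters' processing notes; no version is given. The counting program, annotation and strand setting are not given in the sources used here. Counts were used as deposited; 27 rows with date-like symbols (0.167% of counts) were kept and never named. In R 4.3.3, genes passed filterByExpr of edgeR 4.0.16, TMM set the library scaling, and the robust quasi-likelihood fit held these 6 libraries and the group term alone, with Benjamini-Hochberg adjustment over all 12697 tested genes and a threshold of 0.05. Levels are CPM with TMM factors over n = 3 libraries per group. SE is the size of the log2 fold change over the square root of the F statistic.

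A group with 0 reads is set at a floor of 3 counts per library, and a group with 1 to 3 reads gets a ratio of pooled reads with an exact Clopper-Pearson 95% interval; both cover counting error only. The animal libraries were also compared with the 3D libraries in a fit of all 9 libraries of the first experiment. The members and gene lists were chosen with earlier results of these data known. Of 842 list entries in 41 lists, 837 matched; C1R, CD24, H19, HP and MUC5AC are not analysed here, and some measured genes are not reported here. Named are the 8 largest called rises and falls, provided the gene averaged 10 CPM or more and its groups had no overlap. Symbols that RefSeq types as a pseudogene, which did not take out OR2I1P, and antisense or unnamed loci were left out of these. Also named are up to 6 called members per list by adjusted p, other list members to complete a role group, and the genes of the series title. Other genes are introduced as chosen after their values were seen. Promoters are from RefSeq on GRCh38.p14, and transcript GC content and length from the longest protein-coding transcript of a gene, matched by symbol for 99.1% of genes. The edgeR step was tested on simulated counts. Alternatives were DESeq2 1.42.0, other scalings and filters, a replicate block, a fold threshold, removal of host cell markers and leaving out each library. No pairing by replicate number was seen, and the main fit used none.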

Additional observations from a re-analysis of the deposited data

How the results depend on the processing

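The counts of 3751 higher and 3538 lower genes became 1006 and 549 in the fit of all 9 libraries of the first experiment, and 735 and 282 with a fold threshold of 2. Leaving out 1 library gave 2915 to 4260 higher and 2801 to 4105 lower genes; the lowest counts were without a 2D library and the highest without animal replicate 2. DESeq2 gave 3679 and 3611, median-ratio scaling 3708 and 3601, no filter 3822 and 3699, a stricter filter 3701 and 3559, and removal of the host cell markers 3708 and 3560. Upper-quartile scaling gave 4281 and 2963, so that 59.1% rather than 51.5% of calls were higher, with a median log2 fold change over all genes of 0.10. Same-numbered libraries had correlations of -0.15, 0.05 and -0.05 of their deviations, against -0.13 to 0.17 for differently numbered ones. These values show no pairing by number, but 3 libraries per group cannot exclude one. With a replicate block 3451 genes were higher and 3313 lower. Against the 3D libraries 2406 genes were higher and 2961 lower. Without 3D replicates 1 and 2 only 1 library of 3D remains, so no count is given for that fit. Of 330 genes followed through the alternatives 308 were called, 162 of them in every alternative run; 146 lost the call in at least 1, and 10 genes gained one. Of 1053 recomputed values of 117 list results, 67 moved beyond their limits. Signs turned in 8 genes, none of them called. For SP1 the value was -0.00019 with no filter, and leaving out 1 library gave -0.044 to 0.10. The corresponding ranges were -0.14 to 0.18 for HNF4A, -0.36 to 0.56 for HSPH1, -1.17 to 2.63 for SERPINA1, -0.026 to 0.12 for TXN, -0.017 to 0.15 for MET, -0.12 to 0.36 for CCN1 and -0.15 to 0.37 for CCN2. The animal libraries have lower totals than the 2D libraries, and genes with a few reads in 2D have folds that depend on the floor or the added count. Host reads, the time of collection and the number of animals are not given, and composition and expression per cell cannot be told apart.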

Other observations

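Enzymes of fatty acid oxidation and ketone formation fell in 8 of 20 tested and rose in 3 (median log2 fold change -0.18, against 27.9% lower and 29.5% higher over all genes). ACSL1, which activates long-chain fatty acids, measured 138, 133 and 138 CPM in 2D and 41.5, 46.7 and 50.3 in the animal libraries (log2 fold change -1.56 ± 0.08, adjusted p = 2.54e-05). Its groups had no overlap. Without animal replicate 2, 6 rather than 3 members were higher. Of 23 cholesterol synthesis genes 7 rose and 4 fell (median 0.09), and without 2D replicate 1 or 2 the higher ones numbered 4. HMGCS1, which catalyses an early step, rose from 52.2, 50.6 and 47.99 to 74.8, 67.1 and 68.8 CPM and lost its call in the 9-library fit.

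Integrins and laminins rose in 6 of 19 and fell in 6. The epithelial integrin chains ITGB6 and ITGB8, whose heterodimers activate latent TGF-beta, rose from 1.28 CPM or less to 20.7, 55.4 and 6.74 and 7.49, 9.902 and 2.87 CPM, highest in replicate 2. The collagen receptor chain ITGA1 rose from 15.9, 18.6 and 18.1 to 86.98, 41.9 and 51.3 CPM, and ITGA3, a laminin receptor chain, fell from 514, 478 and 479 to 325, 345 and 304 CPM. Of 11 genes of mesenchymal transition 4 rose and 3 fell, and 1 was lower without any 1 of the 2D libraries or animal replicate 1. The repressor ZEB2 rose evenly, from 4.13, 3.09 and 3.73 to 16.97, 18.5 and 15.2 CPM (log2 fold change 2.21 ± 0.15, adjusted p = 4.48e-05), while SNAI1 fell from 25.99, 27.4 and 28.7 to 15.6, 15.04 and 11.7 CPM. VIM rose to 16.2, 32.8 and 11.3 CPM from 5.66, 5.31 and 6.69, highest in replicate 2, where the summed fibroblast markers were also highest. ITGA1, ITGA3 and SNAI1 lost their calls in the 9-library fit.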
